A study of Mus musculus with 6 samples.

Results

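Chemokines are small secreted proteins that draw cells along a gradient, and 10 of their genes were followed here through the myeloid cells of a mouse embryo data set: Ccl2, Ccl3, Ccl4, Ccl6, Ccl7, Ccl9, Ccl12, Ccl24, Cxcl1 and Cxcl2. Each of the 10 symbols matched 1 of the 31054 features in the deposited matrix. The series describes 3 groups of 2 samples. The Cx3cr1CreER; R26tdTomato embryos were exposed to 4-hydroxytamoxifen at E9.5 (embryonic day) and collected at E14.5. The Csf1r-Mer-iCre-Mer; Csf1r-EGFP; R26tdTomato embryos were exposed at E8.5 and also collected at E14.5, and the last group was whole bone marrow of wildtype C57BL/6 mice aged 2 months. The drug lets Cre act where the promoter of Cx3cr1 or that of Csf1r is in use, and tdTomato is then expressed by the exposed cells and all their progeny, so the label marks cells in which the promoter was active during the exposure and the descendants of these cells. From the embryos, cells of the macrophage and monocyte lineage were taken out of the whole body.

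The matrix pooled 39048 barcodes of 4 libraries, numbered 1 to 4 at the end of the barcode. These numbers match no sample name, so no group of the design could be compared, and which library holds which sample is not known here. The deposited matrix is named for the 2 embryo lines, which have 4 samples, and not for the bone marrow. Libraries 1 to 4 held 127153052, 106500620, 129007371 and 198754246 unique molecular identifiers (UMIs, each counting 1 captured transcript). Cells needed 1000 UMIs, 500 genes and no more than 10% of UMIs from mitochondrial genes, which 34587 met, with a median of 13077 to 14956.5 UMIs in the 4 libraries. Of 34007 different barcode sequences among the kept cells, 571 occurred in more than 1 library. The pooled matrix counts as 1 sample, so no difference below was tested, and each level is given with the spread over libraries or with an exact Poisson 95% interval that covers counting error only.

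Chemokines of the CC and CXC families act on receptors of the same family names. Ccl2, Ccl7 and the mouse-specific Ccl12 draw monocytes through Ccr2, and Ccl3 and Ccl4 are closely related macrophage inflammatory proteins. Ccl6 and Ccl9 are rodent chemokines that act on Ccr1, Ccl24 acts on the eosinophil receptor Ccr3, and Cxcl1 and Cxcl2 draw neutrophils through Cxcr2. Several of these genes are switched on within minutes to hours in macrophages that meet a stimulus, in step with immediate early genes such as Fos and Atf3, and the transcription factor NF-kB is a well-known activator of Cxcl1 and Cxcl2.

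The genes lie in 3 places in the genome (GENCODE annotation, build GRCm38). Cxcl1 (chr5:90891241-90893115) and Cxcl2 (chr5:90903871-90905938) are neighbours on the plus strand of chromosome 5, and Ccl24 lies far from them on the same chromosome (chr5:135569937-135573049, minus strand). The other 7 lie on chromosome 11. Ccl2, Ccl7 and Ccl12 follow one another on the plus strand (starts 82035571, 82045712 and 82101845). Ccl9, Ccl6 and Ccl3 lie on the minus strand (lowest positions 83572919, 83587882 and 83647844), followed by Ccl4 on the plus strand (83662584).

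Promoter sequences from RefSeq (build GRCm38.p6) were matched for 6 of the 10 genes, namely Cxcl1, Cxcl2, Ccl3, Ccl6, Ccl9 and Ccl12. The window shown covers 220 bases, the bases 250 to 31 before the start annotated in RefSeq. For Cxcl1, Cxcl2 and Ccl3 this start is not the GENCODE start, so distances from the GENCODE positions above would differ. Cxcl1 and Cxcl2 are printed as neighbouring genes that share a motif, Ccl3 as a gene that was higher with Fos and Atf3, and Ccl9 as a gene that differed mainly between cell types. Capitals mark matches to the consensus kB motif of NF-kB or to the AP-1 motif TGANTCA, both searched on both strands.
Cxcl1 (chr5:90890995-90891214, plus strand): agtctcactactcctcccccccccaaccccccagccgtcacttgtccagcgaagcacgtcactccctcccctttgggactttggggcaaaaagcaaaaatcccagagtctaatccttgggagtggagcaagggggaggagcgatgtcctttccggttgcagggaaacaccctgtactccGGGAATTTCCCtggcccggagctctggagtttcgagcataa
Cxcl2 (chr5:90903649-90903868, plus strand): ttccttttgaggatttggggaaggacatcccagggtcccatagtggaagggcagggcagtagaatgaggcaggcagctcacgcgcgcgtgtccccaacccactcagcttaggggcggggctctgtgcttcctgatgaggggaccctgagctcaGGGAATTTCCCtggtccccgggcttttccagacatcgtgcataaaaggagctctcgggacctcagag
Ccl3 (chr11:83649409-83649628, minus strand): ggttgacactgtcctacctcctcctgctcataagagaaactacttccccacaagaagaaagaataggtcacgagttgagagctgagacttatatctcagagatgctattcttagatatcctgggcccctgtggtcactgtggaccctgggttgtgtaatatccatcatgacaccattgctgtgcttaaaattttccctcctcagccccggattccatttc
Ccl9 (chr11:83578667-83578886, minus strand): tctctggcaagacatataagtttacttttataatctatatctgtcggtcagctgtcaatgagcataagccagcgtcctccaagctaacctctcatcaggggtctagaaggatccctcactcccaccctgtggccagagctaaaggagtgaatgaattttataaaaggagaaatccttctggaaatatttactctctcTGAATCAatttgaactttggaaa

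The kB motif was found in Cxcl1 and Cxcl2 and in none of the other 4 windows, and in 6.34% of 32851 promoter windows of the same length. Both genes had the same letters, GGGAATTTCC, 71 bases before the RefSeq start of Cxcl1 and 97 bases before that of Cxcl2. These distances hold for the RefSeq starts only. Both also had a match on the other strand that overlaps the first, shifted by 1 base. Exactly these letters, on either strand, occurred in 26 windows, or 0.0791%. The longest stretch shared by the Cxcl1 and Cxcl2 windows was 14 bases long, and no other pair among the 6 shared more than 10. The AP-1 motif, which Fos and Jun proteins bind, was found in Ccl9 (TGAATCA, 53 bases before the start) and in 6.12% of all windows. The CRE motif TGACGTCA, which proteins of the ATF and CREB family bind, was in none of the 6 windows and in 1.14% of all. These matches describe letters in a window and are not measured binding sites.

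Cells were assigned to types by panels of marker genes that hold no chemokine. A marker counted as on in a cell with at least 2 UMIs of it and at least 100 CPM (its count scaled to the same total in every cell or sum), and a cell needed 3 markers of a panel. The tissue macrophage gate (Mrc1, Lyve1, Ms4a7, Stab1, Gas6, F13a1, Cd163) held 10309 cells, the monocyte gate 3968, the Clec4a-high gate (Clec4a1, Clec4a2, Clec4a3, Socs3) 1540, the microglia gate 949 and the Kupffer gate, for the resident macrophages of liver, 921. Smaller myeloid gates were mast cell or basophil (1458 cells), dendritic cell (792), neutrophil (623), granulocyte-monocyte progenitor (488) and osteoclast (72). In the whole matrix 4894 cells passed more than 1 panel and 6374 passed none, and both sets were left out. Panels were high in their own gate: the summed macrophage panel had a median of 3802 CPM in tissue macrophage-gated cells, against 431 CPM in monocyte-gated and 560 CPM in Clec4a-high cells. The monocyte panel had a median of 1323 CPM in Clec4a-high cells, 3224 CPM in monocyte-gated cells and 55.0 CPM in tissue macrophage-gated cells. Clec4a-high cells thus carried markers of both panels, as monocyte-gated cells did. Cells that passed either panel were not counted as Clec4a-high, which limits both medians by itself. Of the monocyte-gated cells 53.3% had just the 3 markers needed, as had 70.6% of Clec4a-high cells and 17.2% of tissue macrophage-gated cells. Neutrophil-gated cells came almost only from libraries 3 (211 cells) and 4 (407 cells), against 3 and 2 cells in libraries 1 and 2. Fewer expressing cells and less RNA per expressing cell cannot be told apart in a summed level. Shares of cells are therefore given beside it, counted after each cell was thinned to 2000 UMIs. The binomial intervals of these shares count single cells pooled over the libraries and do not measure the spread between libraries.

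Free RNA in droplets sets a floor under all levels. Erythroid-gated cells (n = 551), which should not make chemokines, had 12.04 CPM of Ccl2, 19.7 of Ccl3, 19.5 of Ccl4, 7.77 of Ccl7 and 6.82 of Ccl12. They had 3.41 CPM or less of Ccl6, Ccl24 and Cxcl1, 9.43 of Ccl9 and 14.3 of Cxcl2. Levels near these values in another gate were not read as expression. Erythroid-gated cells were the deepest of the 17 gates, with a median of 37065 UMIs. Medians were 12687 UMIs in Kupffer cells, 10104 in mesenchymal cells, 8757 in microglia and 4086 in neutrophils. The same amount of free RNA is a larger share of a shallower cell, so the floor in CPM may lie higher there, which was not measured.

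**Figure D1:**
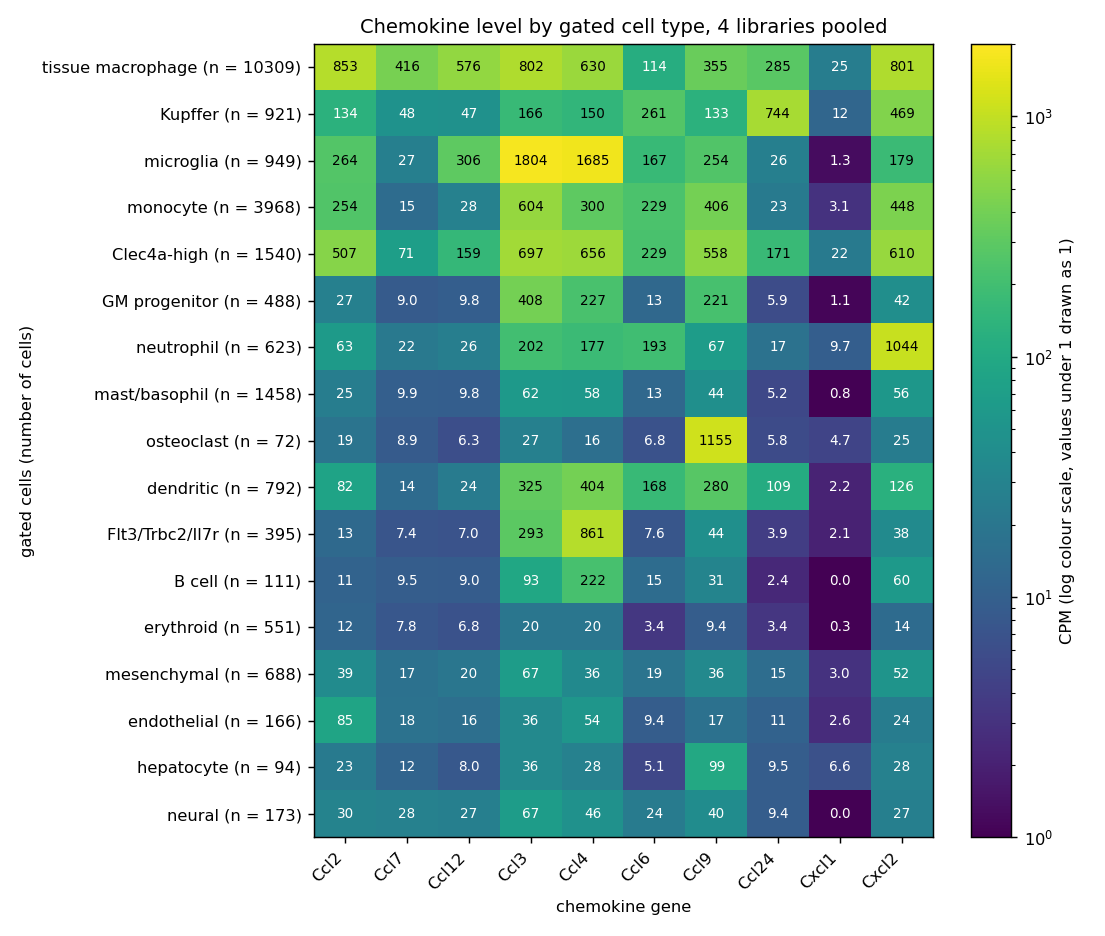
Level of the 10 chemokine genes (columns) in 17 marker-gated cell types (rows, with the number of cells) as CPM of the summed UMIs of all 4 libraries, on a log colour scale. Each gene has its own order of cell types, from Ccl7 at 416 CPM in tissue macrophages to Ccl9 at 1155 CPM in osteoclasts and Ccl3 at 1804 CPM in microglia.

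The Ccr2 ligands were highest in tissue macrophages. Ccl2 had 729, 798, 1030 and 947 CPM in tissue macrophage-gated cells of libraries 1 to 4, against 456, 429, 622 and 575 CPM in Clec4a-high cells. The ranges of these 2 gates did not overlap, and microglia at 264 CPM and monocytes at 254 CPM followed without being apart from each other. Kupffer cells were lower again, at 117 to 151 CPM. A UMI of Ccl2 was found in 51.2% of thinned tissue macrophages (exact binomial 95% interval 50.3 to 52.2), against 2.91% of erythroid-gated cells (1.67 to 4.68).

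Ccl7, the neighbour of Ccl2, was the member most restricted to 1 cell type. It had 303, 321, 596 and 535 CPM in tissue macrophages, against 54.0, 65.8, 102 and 75.9 CPM in the next gate, Clec4a-high cells, a log2 difference of 2.40. Differences here and below were taken as log2(CPM + 10), which understates those of low genes. Libraries 3 and 4 were higher than libraries 1 and 2 in tissue macrophages, and each library had its macrophage value far above its Clec4a-high value. Monocytes had only 12.1 to 19.0 CPM and Kupffer cells 41.9 to 51.2 CPM. Cells with a Ccl7 UMI made up 30.7% of thinned tissue macrophages, 8.57% of Clec4a-high cells and 1.45% of erythroid cells.

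Ccl12 had 529 to 650 CPM in tissue macrophages and 235 to 356 CPM in microglia, which ranked next. In the sums it was the Ccr2 ligand with the highest level in microglia, where Ccl7 stood at 26.9 CPM. Ccl2 had 196 to 326 CPM in microglia, which overlapped the range of Ccl12. Clec4a-high cells had 128 to 169 CPM and Kupffer cells 27.7 to 56.6 CPM of Ccl12. The Kupffer cells were thus low in all 3 Ccr2 ligands, with 134 CPM of Ccl2, 47.5 of Ccl7 and 46.6 of Ccl12.

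Ccl3 and Ccl4 were highest in microglia. Ccl3 had 1905, 1862, 1792 and 1643 CPM in microglia-gated cells of libraries 1 to 4, against 725, 733, 848 and 938 CPM in tissue macrophages. All 4 microglia values were above all 4 macrophage values, and the log2 difference of the sums was 1.16. Tissue macrophages, Clec4a-high cells (697 CPM) and monocytes (604 CPM) overlapped in their order. Ccl3 was also above the floor in granulocyte-monocyte progenitors, at 392 CPM in library 3 and 438 CPM in library 4, whereas Kupffer cells had 123 to 200 CPM.

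Ccl4 had 1465, 1837, 2047 and 1531 CPM in microglia, and the next gate was not a macrophage. Cells gated on 2 of Flt3, Trbc2 and Il7r, almost all from libraries 3 and 4 (178 and 213 cells), had 750 and 915 CPM of Ccl4. In the same cells Ccl3 stood at 293 CPM, so the ratio of the 2 genes there was unlike that in microglia, where they were close to equal. Tissue macrophages had 497 to 854 CPM of Ccl4 and Clec4a-high cells 504 to 922 CPM. A UMI of Ccl4 was present in 54.4% of thinned microglia (51.2 to 57.6), 45.04% of the Flt3/Trbc2/Il7r-gated cells (40.0 to 50.1) and 4.18% of erythroid cells (2.67 to 6.21).

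Ccl9 marked the osteoclast gate. Osteoclasts resorb bone and descend from the macrophage lineage, and their gate rests on Ctsk, Acp5, Mmp9, Ocstamp, Dcstamp and Atp6v0d2. Ccl9 had 1076, 1328, 931 and 1241 CPM in the 16, 11, 14 and 31 osteoclast-gated cells of libraries 1 to 4, against 543, 535, 621 and 563 CPM in Clec4a-high cells. Every osteoclast value was higher than every Clec4a-high value, with a log2 difference of 1.04 between the sums. An osteoclast-gated cell held 30.7 UMIs of Ccl9 on average, and 84.7% of them had a UMI after thinning (74.3 to 92.1), against 61.3% of Clec4a-high cells and 2.73% of erythroid cells. The other 9 members were low in the osteoclast gate, the highest being Ccl3 at 27.2 CPM (Poisson interval 20.3 to 35.7). Monocytes (406 CPM) and tissue macrophages (355 CPM) followed in the order of Ccl9, overlapping each other, and Kupffer cells had 133 CPM.

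Ccl6, the neighbour of Ccl9, was spread widely instead. It had 246 to 292 CPM in Kupffer cells, 185 to 295 in monocytes, 206 to 312 in Clec4a-high cells and 217 and 175 CPM in the neutrophils of libraries 3 and 4. Ranges of neighbours in the order overlapped down to microglia at 149 to 184 CPM. Tissue macrophages stood below these at 107 to 122 CPM, and osteoclasts had 6.80 CPM (3.59 to 11.6), so the highest Ccl9 gate was near the Ccl6 floor.

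Ccl24 was highest in Kupffer cells, with 660, 825, 804 and 740 CPM in libraries 1 to 4, against 269, 281, 312 and 292 CPM in tissue macrophages. The log2 difference was 1.35, and the 2 ranges were far apart. A UMI of Ccl24 was found in 61.6% of thinned Kupffer cells (58.4 to 64.8) and 33.9% of tissue macrophages, against 3.39% of microglia and 1.27% of erythroid cells. Microglia (26.5 CPM) and monocytes (22.6 CPM) were thus low in a gene that both other macrophage gates carried.

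Cxcl2 had a flatter order. Neutrophil-gated cells were on top of the sums with 1215 CPM in library 3 and 954 CPM in library 4, the only libraries with more than 3 of them. In these libraries tissue macrophages were higher, at 1348 and 1232 CPM, and their lower sum also held libraries 1 and 2, at 462 and 435 CPM. The next 3 gates overlapped in turn. Neutrophil-gated cells were shallow, with a median of 4086 UMIs, so their 5.69 UMIs of Cxcl2 per cell compare with 11.5 per tissue macrophage. Their level also moved with the filter, to 365 CPM in cells of at least 3000 UMIs and 1500 genes with at most 5% mitochondrial UMIs. Microglia, the top gate of Ccl3 and Ccl4, had only 103 to 312 CPM of Cxcl2.

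Cxcl1 was the lowest member. Its highest gates were tissue macrophages with 6.44, 5.36, 33.5 and 61.8 CPM in libraries 1 to 4 and Clec4a-high cells with 2.37, 0.286, 37.2 and 55.8 CPM. Values in libraries 3 and 4 were above those in libraries 1 and 2 in both gates. Only 2.45% of thinned tissue macrophages had a UMI of Cxcl1, against 0 of 550 erythroid-gated cells (upper bound 0.668%).

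**Figure D2:**
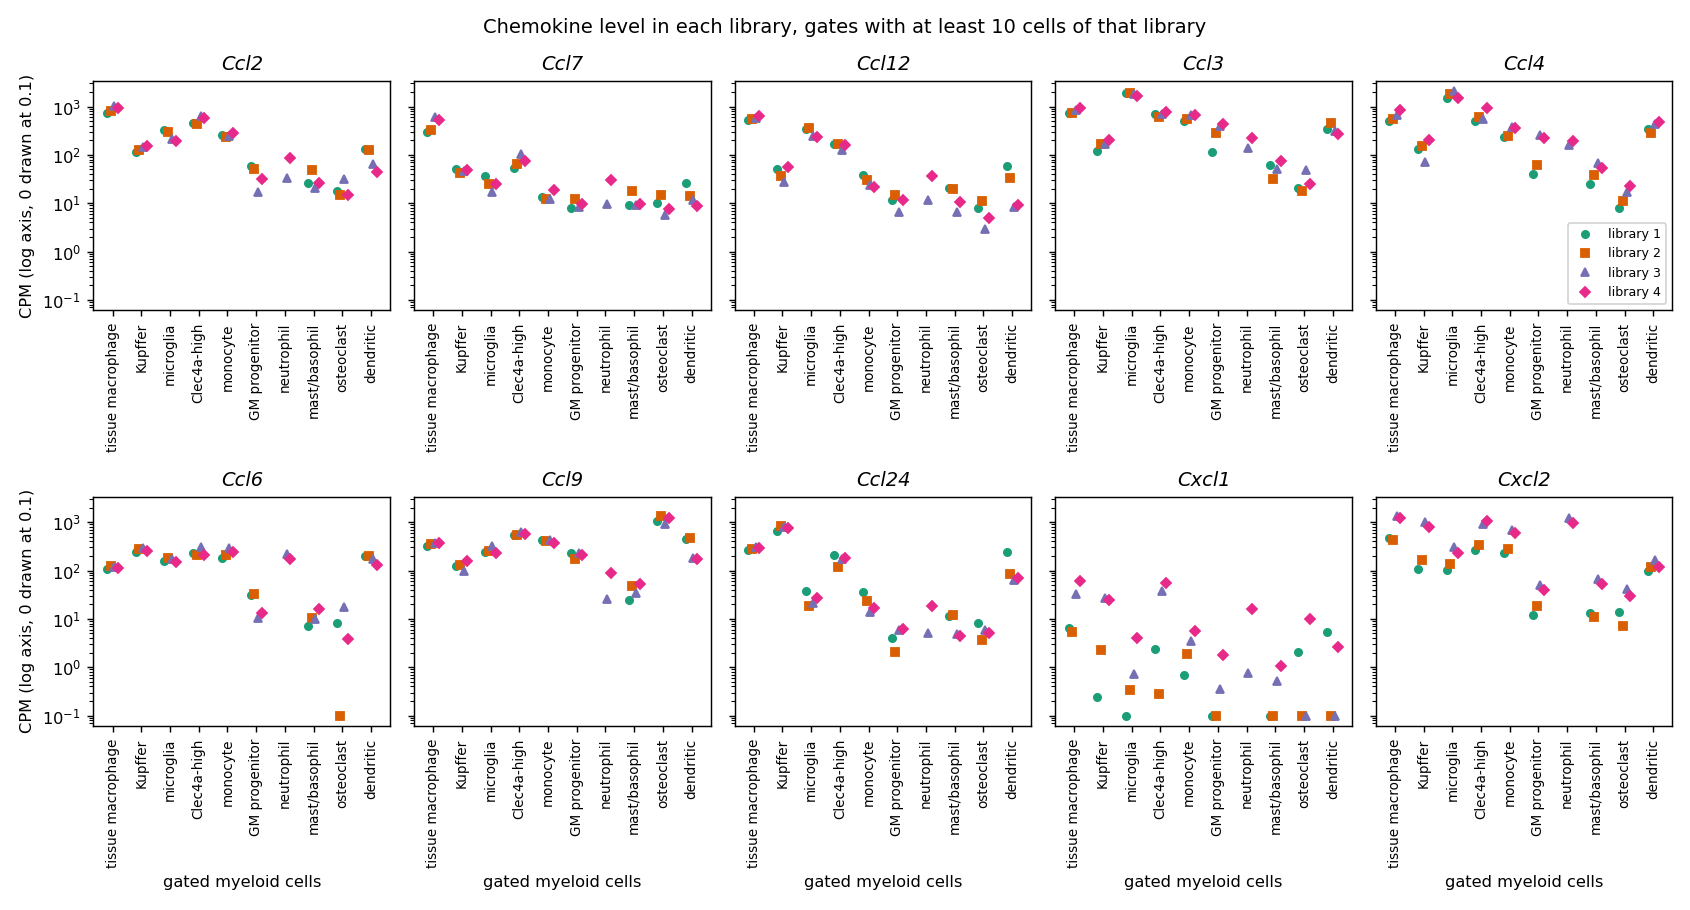
CPM (log axis, with 0 drawn at 0.1) of each chemokine in each of the 4 libraries, for myeloid gates with at least 10 cells of that library. Libraries lie close together for Ccl3, Ccl6, Ccl12 and Ccl24 in macrophages, whereas Cxcl2 is higher in libraries 3 and 4 in the macrophage, Kupffer, microglia, Clec4a-high and monocyte gates, and Cxcl1 in the macrophage, Kupffer and Clec4a-high gates. Cxcl1 stays under 10 CPM in microglia and monocytes.

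The library difference of Cxcl2 was seen in several cell types. Kupffer cells had 989 and 793 CPM of Cxcl2 in libraries 3 and 4, against 108 and 165 CPM in libraries 1 and 2. Clec4a-high cells had 904 and 1072 CPM against 267 and 343, and monocytes 704 and 608 CPM against 229 and 273. Dendritic cells showed little of it, with 164 and 117 CPM in libraries 3 and 4, against 98.8 and 117 CPM in libraries 1 and 2. Cxcl1 differed in the same way in Kupffer cells, with 26.6 and 24.0 CPM in libraries 3 and 4, against 0.242 and 2.29 CPM in libraries 1 and 2. In monocytes and microglia Cxcl1 was at most 5.72 CPM, under the 10 CPM required for a comparison of size, and was not read. In tissue macrophages the NF-kB target Il1b, a cytokine gene, stood at 123 and 200 CPM in libraries 3 and 4, against 19.5 and 22.8 CPM in libraries 1 and 2, and Atf3 at 320 and 404 CPM against 226 and 227. Fos ran the other way there, with 1627 and 1677 CPM in libraries 3 and 4, against 1837 and 1892 CPM in libraries 1 and 2. Of the heat shock genes, Hspa1a went with the same libraries, at 38.6 and 59.0 CPM in tissue macrophages of libraries 3 and 4, against 15.8 and 14.4 CPM in libraries 1 and 2. In monocytes Hspa1a had 51.4 and 83.3 CPM against 9.14 and 10.8 CPM. Hspa1b stayed under 5 CPM in both gates. Hsp90aa1 in tissue macrophages was closer, with 565 and 547 CPM against 435 and 421 CPM, and Dnajb1 ran the other way, with 48.9 and 51.2 CPM against 69.6 and 66.8 CPM. The part of any such response in the Cxcl2 values was not tested. Because the libraries are unnamed, their origin and this difference cannot be told apart.

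Across all genes, being highest in 1 gate was common. Of 12494 genes with at least 10 CPM in some gate, 7.21% were at least 4-fold higher in their top gate than in the next, and 1 of the 10 members was, Ccl7, a share close to that of all genes. At 2-fold, 20.4% of all genes passed, and 4 members did: Ccl7, Ccl24, Ccl3 and Ccl9, with Ccl4 just outside at a log2 difference of 0.96. With 1 marker more required of each cell, Ccl7 stood at 448 CPM in tissue macrophages, against 106 CPM in Clec4a-high cells, and fell just short of 4-fold, leaving 0 members.

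Between the 2 largest gates, members differed more often than genes at large. The members were chosen as chemokines of myeloid cells with earlier results of these data known, so such shares describe the list and test nothing. At least 2-fold higher in tissue macrophages than in monocytes were 6 of 10 members, whereas 6.19% of 7630 genes were, and 0 members were at least 2-fold lower, whereas 3.54% of genes were. Ccl7 (416 against 14.52 CPM), Ccl12 (576 against 28.3 CPM) and Ccl24 (285 against 22.6 CPM) led, with log2 differences of 4.12, 3.94 and 3.18, followed by Ccl2 at 1.71, Cxcl1 at 1.42 and Ccl4 at 1.04. Each of these 6 was higher in all 4 libraries. Cxcl1 differed by as little as 0.37 in a single library. In libraries 1 and 2 it was under the 10 CPM required for a comparison of size, in both gates. Without library 4 the count was 4. Ccl6 was lower, at 114 CPM in tissue macrophages against 229 CPM in monocytes, in all 4 libraries, and Ccl9 was close to equal (355 against 406 CPM).

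Kupffer cells and microglia were set against tissue macrophages in the same way. In Kupffer cells 2 members were at least 2-fold higher, Ccl24 (log2 1.35) and Ccl6 (1.13), where 2.75% of 7589 genes were, and 6 were at least 2-fold lower, where 2.71% were. The lower ones were Ccl12 (-3.37), Ccl7 (-2.89), Ccl2 (-2.59), Ccl3 (-2.21), Ccl4 (-1.999) and Ccl9 (-1.36), each in 4 of 4 libraries. In microglia Ccl4 (1.41) and Ccl3 (1.16) were at least 2-fold higher, where 3.12% of 7606 genes were. Ccl7 (-3.53), Ccl24 (-3.02), Cxcl2 (-2.11), Ccl2 (-1.65) and Cxcl1 (-1.63) were at least 2-fold lower, where 2.33% of genes were. Each was lower in 4 of 4 libraries. For Cxcl1 the smallest difference in a single library was -0.57, and libraries 1 and 2 had under 10 CPM of it in both gates. The 2 comparisons share the tissue macrophages.

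Osteoclasts, summed over 72 cells, differed at least 2-fold from tissue macrophages in all 10 members. Ccl9 was the 1 member at least 2-fold higher, where 6.38% of 7840 genes were, and the other 9 were at least 2-fold lower, where 10.7% were, from Ccl12 at -5.17 (6.28 against 576 CPM) to Cxcl1 at -1.25 (4.71 against 25.0 CPM). Clec4a-high cells had more of several members than monocytes. At least 2-fold higher were Ccl24 (log2 2.48), Ccl12 (2.14), Ccl7 (1.72), Cxcl1 (1.30) and Ccl4 (1.10), 5 of 10 members, where 1.27% of 7252 genes were, and 0 members were at least 2-fold lower, where 1.03% were. Of the 5, Cxcl1 was higher in 3 of 4 libraries and the others in 4 of 4. In libraries 1 and 2 Cxcl1 was under 10 CPM in both gates.

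The same genes were then read within a cell type. In each gate and library, cells thinned to 5000 UMIs were ranked by the sum of Fos and Atf3 UMIs, split into 4 equal sets, and the full counts of the highest set (Fos/Atf3-high) and the lowest set (Fos/Atf3-low) were summed. In tissue macrophages 2381 cells formed the highest and 2383 the lowest set. Fos stood at 3785 against 369 CPM and Atf3 at 636 against 60.8 CPM, which the ranking sets by itself. Median depth was 12292 UMIs in the highest and 14165 in the lowest set, the mitochondrial share was 2.56% against 2.63%, and the macrophage panel had a median of 3905 against 3638 CPM.

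All 10 chemokines were higher in Fos/Atf3-high tissue macrophages, by widely different amounts. At least 2-fold higher were 6 of 10 members, whereas 0.901% of 7433 tested genes were, and 0 members were at least 2-fold lower, whereas 0.0942% of genes were. The median member differed by 1.18 on the log2 scale, against -0.05 for all tested genes. Cxcl2 had 716, 762, 2757 and 2250 CPM in Fos/Atf3-high cells of libraries 1 to 4, against 196, 185, 374 and 311 CPM in Fos/Atf3-low cells. The high cells were above the low cells in every library, the log2 difference of the sums was 2.50, and Cxcl2 took rank 2 of all tested genes. Ccl4 had 598, 705, 1158 and 1469 CPM in high cells, against 282, 359, 264 and 326 CPM in low cells, a log2 difference of 1.58. The low cells hardly differed between libraries and the high cells did, with libraries 3 and 4 on top.

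Ccl3 had 954, 975, 1398 and 1471 CPM in Fos/Atf3-high cells, against 375, 437, 431 and 429 CPM in low cells, a log2 difference of 1.48. Cxcl1 had 13.3, 6.15, 56.6 and 100.2 CPM in high cells, against 1.91, 2.70, 8.48 and 21.1 CPM in low cells. Its sums differed by 1.51, with values of 0.35 to 1.85 in single libraries, so library 2 showed little of it. The Ccr2 ligands differed by less, Ccl7 by 1.19 (600 against 256 CPM) and Ccl2 by 1.17 (1171 against 514 CPM), and Ccl12 stayed under 2-fold at 0.78 (760 against 439 CPM).

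The remaining 3 members differed least. Ccl6 stood at 133 CPM in high cells against 85.4 CPM in low cells (log2 0.58) and Ccl24 at 334 against 238 CPM (0.47), both higher in 4 of 4 libraries. Ccl9 had 331, 337, 463 and 421 CPM in high cells, against 283, 343, 315 and 312 CPM in low cells. Its difference was 0.27, it was higher in 3 of 4 libraries, and its rank of 469 was the lowest of the members. From the lowest to the highest of the 4 sets, 9 members went up at each step, and Ccl9 had 312, 356, 384 and 379 CPM.

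**Figure D3:**
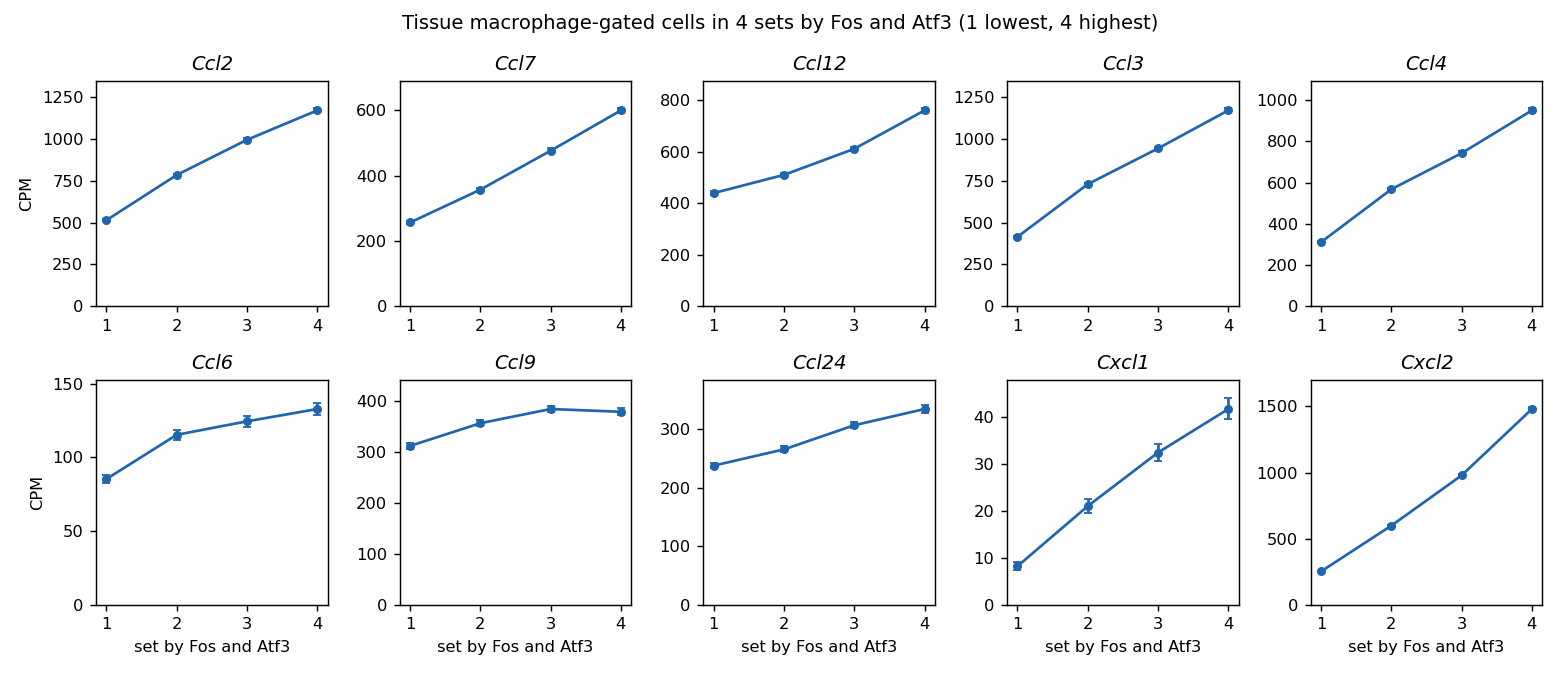
CPM of each chemokine (4 libraries summed, axis from 0, each panel with its own scale) in tissue macrophage-gated cells split into 4 sets by Fos and Atf3, from the lowest (1) to the highest (4). Error bars are exact Poisson 95% intervals. Cxcl2 goes through 253, 599, 979 and 1480 CPM, while Ccl9 flattens after the third set.

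Genes of the same early response moved alongside. Of the other immediate early genes (Fosb, Jun, Junb, Egr1, Ier2, Dusp1, Zfp36, Nr4a1, Btg2, Klf6) 10 of 10 were at least 2-fold higher in Fos/Atf3-high tissue macrophages, with a median log2 difference of 2.04. Of 12 early targets of NF-kB 9 were, with a median of 1.75, among them the inhibitor gene Nfkbia (997 against 263 CPM), Tnfaip3 (89.2 against 13.4 CPM) and Il1b (168 against 34.6 CPM). Of 5 heat shock genes with enough counts 0 were, and their median was -0.40. These lists were drawn up with earlier results of these data known. What set Fos and Atf3 apart between cells of 1 type was not tested.

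The 2 readings were set side by side. Cxcl2, Cxcl1, Ccl4 and Ccl2 were at least 2-fold higher with Fos and Atf3 and under 2-fold between their highest gate and the next. Ccl9 and Ccl24 were under 2-fold with Fos and Atf3 and over 2-fold between gates. Ccl7 and Ccl3 passed 2-fold on both, and Ccl12 (0.78 and 0.89) and Ccl6 (0.58 and 0.18) on neither. Ccl3 and Ccl4 stood close to each other, at 1.16 and 0.96 between gates. These places rest on the split into 4 sets: with 2 sets Cxcl2 alone (1.47) was at least 2-fold higher with Fos and Atf3, and with cells ranked by Atf3 alone Ccl2 (0.83) and Ccl7 (0.86) were not.

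In Kupffer cells the spread between members was wider. Cxcl2 had 247, 348, 2496 and 1677 CPM in Fos/Atf3-high Kupffer cells of libraries 1 to 4, against 25.3, 36.9, 23.3 and 49.1 CPM in low ones, a log2 difference of 4.58. Low cells were alike in all libraries, and the highest values came from libraries 3 and 4. Ccl4 (2.72), Ccl3 (2.60), Cxcl1 (25.1 against 0 CPM), Ccl2 (1.35) and Ccl12 (1.09) were also at least 2-fold higher, so 6 of 10 members were, whereas 1.48% of 7416 genes were. For Cxcl1 library 1 had 0 CPM on both sides and library 2 had 7.80 against 0 CPM. Only 2.28% of Kupffer cells held a UMI of Cxcl1 before thinning. Ccl12 passed 2-fold in library 4 alone (1.81), with 0.81, 0.43 and 0.47 in libraries 1 to 3. The 2 genes highest in the Kupffer gate were lower instead. Ccl24 had 614, 662, 867 and 550 CPM in high cells, against 700, 1064, 1075 and 884 CPM in low cells (log2 -0.46), and Ccl6 had 221 against 316 CPM in the sums (log2 -0.50), each lower in 4 of 4 libraries. Depth differed here, with a median of 17805 UMIs in high and 10179.5 in low cells, and its part in these values was not tested.

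In microglia Ccl4 (2463 against 772 CPM, log2 1.66), Ccl3 (2655 against 1033 CPM, 1.35), Ccl2 (1.32) and Cxcl2 (1.22) were at least 2-fold higher in Fos/Atf3-high cells, each in 4 of 4 libraries, whereas 0.956% of 7534 genes were. Ccl6 was lower in 4 of 4 libraries, with 136 CPM in high cells against 212 CPM in low cells. Ccl12 was close to equal (291 against 264 CPM). Ccl3 was higher in microglia than in tissue macrophages in the low sets (1033 against 415 CPM) and in the high sets (2655 against 1171 CPM). Cells were ranked within each gate, so these sets are not matched between gates. In the low sets Atf3 stood at 123 CPM in microglia against 60.8 CPM in tissue macrophages, and Fos at 271 against 369 CPM. The part of this in the Ccl3 values was not tested.

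Monocytes differed less than tissue macrophages, Kupffer cells and microglia, with a median member at a log2 difference of 0.39. Ccl3 (881 against 332 CPM, log2 1.38) and Ccl4 (406 against 197 CPM, 1.01) were at least 2-fold higher in Fos/Atf3-high monocytes, whereas 0.213% of 7030 genes were. Cxcl2 stood at 554 against 396 CPM, a log2 difference of 0.48. None of 11 tested early NF-kB targets was at least 2-fold higher in monocytes, where 9 of 12 were in tissue macrophages; the difference between the 2 gates was not tested. The Fos contrast was smaller too, with 3670 against 703 CPM in monocytes.

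Clec4a-high cells went against the pattern for Cxcl1. Cxcl1 had 1.77, 0, 4.79 and 2.55 CPM in Fos/Atf3-high Clec4a-high cells of libraries 1 to 4, against 1.05, 0.558, 80.1 and 123.6 CPM in low cells. The values of libraries 1 and 2 were near the floor on both sides, and in libraries 3 and 4 the low cells were far above the high ones, giving a log2 difference of -2.31 for the sums. Only 3.90% of the 1540 Clec4a-high cells had a UMI of Cxcl1 before thinning, so these values rested on few cells. Ccl24 was also lower in high cells, at 106 against 251 CPM (log2 -1.16), in 4 of 4 libraries, and Ccl7 stood at 61.5 against 84.6 CPM (-0.40), lower in 3 of 4. Ccl3 alone was at least 2-fold higher (981 against 402 CPM, log2 1.27), whereas 0.346% of 7227 genes were.

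Dendritic cells and mast cells or basophils also had Ccl3 and Ccl4 higher with Fos and Atf3. In dendritic cells Ccl3 differed by 2.01 (549 against 129 CPM), Ccl4 by 1.95, Cxcl2 by 1.56 and Ccl2 by 1.29, each in 4 of 4 libraries, whereas 0.597% of 7369 genes were at least 2-fold higher. In mast cells or basophils 5 members passed 2-fold, whereas 0.604% of 7122 genes did, and Ccl9 led with 105 against 18.0 CPM (log2 2.04), higher in both libraries that could be read, 3 and 4. The levels of all members in this gate stayed below those in macrophages and monocytes. Ccl3 had 61.6 CPM over the whole gate, against 19.7 CPM in the deeper erythroid-gated cells. In the erythroid gate Fos stood at only 85.8 against 31.1 CPM, and 0 of 5 tested members were at least 2-fold higher, whereas 0.160% of 6260 genes were. Mesenchymal cells, which are not myeloid, differed from that, with Fos at 2269 against 72.7 CPM and 5 of 9 tested members at least 2-fold higher, whereas 1.41% of 9037 genes were. These were Ccl6 (52.2 against 3.52 CPM), Ccl3 (133 against 24.6 CPM), Ccl4 (59.8 against 15.2 CPM), Ccl24 (26.1 against 4.10 CPM) and Ccl9 (78.2 against 13.5 CPM). Ccl9 was higher in 3 of 4 libraries and the others in 4 of 4, but not by 2-fold in every library. For Ccl24 library 3 had 107 against 0 CPM, while libraries 1, 2 and 4 had 12.4 against 10.0, 6.33 against 0 and 8.13 against 0 CPM. In library 3 Ccl6 differed by only 0.19 and Ccl3 by 0.29. The macrophage panel had a median of 93.0 CPM in high and 86.3 CPM in low mesenchymal cells, and the part of macrophage RNA in these values was not tested.

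Cell by cell, the pair that went together most was Ccl2 with Ccl7. Over the 10309 tissue macrophage-gated cells, which share libraries and differ in depth, Pearson's r of log-scaled counts was 0.60 for Ccl2 with Ccl7, 0.49 for Ccl3 with Ccl4, 0.40 for Ccl2 with Ccl12 and 0.38 for Ccl6 with Ccl9. Cxcl1, with few UMIs, had 0.28 with its neighbour Cxcl2, and Ccl6 had 0.10 with Ccl3. Genes of different chromosomes reached like values, with 0.36 for Cxcl2 with Ccl3, 0.35 with Ccl2 and 0.34 with Ccl4. Ccl6 had -0.08 with Ccl2 and -0.09 with Ccl7. Atf3 had 0.41 with Ccl3, 0.38 with Cxcl2 and 0.37 with Ccl4, against 0.20 with Ccl2 and 0.14 with Ccl7. Members also differed in how unevenly cells held them. The tenth of cells with most of a gene held 67.9% of the UMIs of Ccl7 after thinning, 64.5% of those of Cxcl2 and 64.3% of those of Ccl4. It held 46.7% for Ccl3, 47.5% for Ccl9 and 49.8% for Ccl2. Ccl6 (76.4%) and Cxcl1 (100%) were above Ccl7, with a UMI in only 15.6% and 2.45% of thinned cells. Being found in fewer cells raises this share by itself.

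Genes outside the members were ranked by how much they were like each chemokine. Over the tissue macrophages, Cxcl2 was most like Nfkbia (r = 0.58), Nfkbiz (0.49) and Junb (0.48), and Ccl3 and Ccl4 were most like Atf3. Ccl12 was most like Nfkbiz (0.27), Klf6 (0.24) and Phlda1 (0.23). Ccl24 was most like Ednrb (0.43), the lymphatic and macrophage receptor gene Lyve1 (0.42) and F13a1 (0.40), the last 2 of which belong to the gate panel. The interferon-inducible membrane protein gene Ifitm3 was the closest to Ccl9 (0.33) and, after Wfdc17 (0.30), to Ccl6 (0.29). Marcksl1 (0.37) and Dab2 (0.36) were closest to Ccl2, and Dab2 (0.35) and Pf4 (0.34) to Ccl7. Over 43 sums of gate and library, the closest genes were Mrc1 for Ccl7 (r = 0.95, a panel gene), Ang for Ccl12 (0.95), Ms4a6d for Ccl2 (0.94), Ms4a6c for Ccl9 (0.95), AB124611 for Ccl6 (0.98), Tmem106a for Ccl24 (0.92), Plek for Ccl3 (0.92), Aim2 for Ccl4 (0.90) and the lipopolysaccharide co-receptor gene Cd14 for Cxcl2 (0.92). Cxcl1 had no close partner (Msr1, 0.62).

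Tissue macrophages with a tdTomato UMI (3377 cells) were compared with those without one (6149 cells), both sets thinned to 5000 UMIs for the call. No member differed by 2-fold in either direction, whereas 0.0679% of 7369 genes were at least 2-fold higher and 0 genes lower. In the sums Cxcl2 stood at 958 against 726 CPM (log2 0.40), Ccl7 at 494 against 377 CPM (0.38) and Ccl24 at 326 against 264 CPM (0.29), each higher in 4 of 4 libraries. Libraries held different shares of cells with the label, and within libraries 1 to 4 Cxcl2 differed by 0.40, 0.08, 0.25 and 0.15, Ccl7 by 0.25, 0.37, 0.31 and 0.19, and Ccl24 by 0.20, 0.17, 0.41 and 0.37. No order of these 3 genes held in every library. Ccl2 (log2 0.23 in the sums), Ccl12 (0.25) and Ccl3 (0.21) were also higher in 4 of 4 libraries. So was Fos (0.10), and Atf3 (0.18) was higher in all but library 3. Ccl4, Ccl6 and Cxcl1 went both ways between libraries. Ccl9 was slightly lower, at 330 against 370 CPM, also in 4 of 4 libraries. Median depth was 12371 UMIs with tdTomato and 14778 without, and absence of a UMI does not show that a cell lacks the label.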

How the data were processed

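UMI counts per gene and barcode were deposited by the authors in 1 pooled 10x Genomics matrix of 31054 features and 39048 barcodes, as 3-prime single-cell RNA sequencing per the labels' protocols. Per the file headers, the software was Cell Ranger 3.0.1, whereas version 2.1.1 and the build mm10 are listed in the submitters' processing notes. Libraries held 106500620 to 198754246 UMIs. The planned groups could not be compared, because barcode numbers match no sample.

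Cells were gated by markers, and those passing more than 1 panel were left out, which also removes doublets of 2 gated types; no doublet caller was run, so doublets of 1 type remain. A cell passing another panel too was not counted as Clec4a-high. The numbers of markers were set after the depth was seen. Gates of at least 50 cells were used (17 of 18). UMIs were summed per gate and library and given as CPM. Genes of at least 10 CPM in 1 of the sets compared were tested for size, with a pseudocount of 10 CPM. Correlations used genes of at least 50 CPM in 1 sum, or with a UMI in at least 5% of cells. The text names all 10 members, the 5 most abundant of 26 other chemokines, receptors, immediate early, NF-kB and heat shock genes by list, and up to 3 closest genes per member. The members and lists were chosen with earlier results of these data known. On simulated counts of 7262 genes at the depth of the Fos/Atf3 comparison in tissue macrophages, 100% of genes changed 4-fold upward and 92% of those changed 4-fold downward were recovered to within 0.5 log2 units. The changed genes had at least 50 CPM, and the sums were drawn with Poisson error only. Spread between cells or libraries and the ranking of cells were not simulated, so the recovery covers counting error alone. Alternatives covered the ranking genes, the split, the gate, the cell filter, the marker number, the deepest 5% of cells, the pseudocount, the count filter and each library left out. Python 3.11.15, numpy 2.4.6, scipy 1.17.1 and pandas 2.3.3 were used.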

Additional observations from a re-analysis of the deposited data

How the results depend on the processing

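No paired analysis was possible because the barcode numbers match no sample, so no groups with shared replicate numbers could be formed. The number of members at least 2-fold higher in Fos/Atf3-high tissue macrophages was 6, and it was 1 with the cells split into 2 sets in place of 4 and 2 in the monocyte gate; the other rankings gave 7 (other immediate early genes), 5 (Fos alone) and 4 (Atf3 alone). The median log2 difference of a member was 1.18. It was 1.77 when cells were ranked by the other immediate early genes, 0.84 by Atf3 alone and 0.74 with 2 sets, 0.71 in the microglia gate and 0.39 in the monocyte gate. Cxcl1 changed sign in the monocyte gate, at -0.22 against 1.51 in tissue macrophages. Its monocyte levels of 1.92 and 3.89 CPM were under the 10 CPM required for a comparison of size. Members under 2-fold in tissue macrophages also changed sign in another gate, with lowest values of -0.61 for Ccl6, -0.46 for Ccl24, -0.24 for Ccl9 and -0.02 for Ccl12. Leaving out each library in turn gave 6 to 6 members and a median of 1.05 to 1.34, 1 to 1 member at least 4-fold higher in its top gate, and 4 to 6 members higher in tissue macrophages than in monocytes. With 1 marker more required the 4-fold count was 0 in place of 1. Cxcl2 in neutrophil-gated cells, 1044 CPM, moved to 672 CPM with 1 marker more and 365 CPM with the stricter cell filter. The causes of these differences were not tested. Cxcl1 values under 10 CPM rested on few UMIs and lay under the level required for a comparison of size. Erythroid-gated cells had 0.301 CPM of Cxcl1. The osteoclast gate rested on 72 cells.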

Other observations

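Outside the 10 genes, 23 of 26 other listed chemokines matched 1 feature, and 3 of them reached 10 CPM over all myeloid gates together. Pf4, the platelet and macrophage chemokine, led with 1413 CPM over the myeloid gates, and stood at 3067 CPM in tissue macrophages and 635 CPM in Kupffer cells, against 39.7 CPM in monocytes. Cxcl10, an interferon-induced ligand of Cxcr3, had 115 CPM in microglia and 71.6 CPM in tissue macrophages, and Cxcl16 had 35.4 CPM in Kupffer cells and 38.8 CPM in tissue macrophages, against 3.06 CPM in monocytes. Ccl5 was highest in dendritic cells (79.97 CPM), and Ccl25 stayed between 3.24 CPM in neutrophils and 9.72 CPM in mast cells or basophils over the myeloid gates. In tissue macrophages 1 of 4 tested other chemokines was at least 2-fold higher in Fos/Atf3-high cells, Cxcl10, with 108 CPM in high cells against 43.1 CPM in low cells.

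Receptors of the 10 chemokines were read in the same gates. Cxcr2, the receptor of Cxcl1 and Cxcl2, stood at 132 CPM in neutrophils, the highest gate of Cxcl2 in the sums, and 20.02 CPM in microglia. Ccr1 had 246 CPM in Clec4a-high cells, 229 CPM in neutrophils and in monocytes and 212 CPM in tissue macrophages. Ccr2, a marker of the monocyte gate, had 490 CPM there and 463 CPM in Clec4a-high cells, against 68.2 CPM in tissue macrophages, where its 3 ligands were highest. Ccr3, the receptor of Ccl24, reached 12.03 CPM at most, in osteoclast-gated cells.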
